A study of Mus musculus with 6 samples.

Results

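Basal keratinocytes of the skin hold on to the basement membrane through hemidesmosomes and focal adhesions. In a hemidesmosome the α6β4 integrin (genes Itga6 and Itgb4) and collagen XVII (Col17a1) span the cell membrane, plakins such as the epithelial product of Dst join them to keratin filaments, and outside the cell they meet laminin-332, a trimer whose α3 and β3 chains are encoded by Lama3 and Lamb3. The α3β1 integrin (Itga3 and Itgb1) also binds laminin-332 and connects to actin, and Lama5 encodes the α chain of laminin-511, the other main laminin beneath epidermis and hair follicles. Inherited loss of several of these proteins blisters human skin, and high α6 integrin at the cell surface is a widely used handle for sorting basal and follicle stem cells.

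The genes described here are these 9, chosen by symbol: Itga6, Itgb4, Itga3, Itgb1, Col17a1, Dst, Lama3, Lamb3 and Lama5. All probe sets of the array whose platform annotation gives 1 of these symbols were taken, which found 12 of 12422 probe sets, for 8 of the 9 genes. Dst was the 1 gene with no probe set under its symbol and is not analysed here. Itgb1, Itga3, Lamb3 and Lama5 each had 2 probe sets, and Itga6, Itgb4, Col17a1 and Lama3 each had 1. On this Affymetrix design a name ending in _at marks a probe set designed for 1 transcript, _f_at and _s_at mark sets that can share signal with related transcripts, and _r_at marks a set chosen under relaxed design rules.

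RNA came from keratinocytes of the skin of K15-EGFP transgenic mice, in which a promoter of keratin 15, a keratin of the hair follicle bulge, is used to mark cells with enhanced green fluorescent protein (EGFP). Sorting by flow cytometry gave 3 samples of EGFP-high, α6 integrin positive cells and 3 samples of EGFP-negative, α6 integrin positive cells, with 1 array each. Cells of both groups therefore carry the transgene and passed a gate on the protein of Itga6, which is itself a member here. The labels used here give no strain, age, sex or height of the α6 gate, and do not say whether replicates came from separate animals, so the p-values rest on the variation among these 6 samples, and how much of it is technical is not known.

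The trimmed means of the 6 arrays lay between 150.06 and 150.08 and their medians between 69.55 and 76.05. Of 12 keratinocyte markers on the array, 9 were above the 95th percentile of 19 bacterial and yeast control probe sets on all 6 arrays, among them Trp63, Dsp and Perp. Krt14 and Krt15 were above it on 0 arrays and Krt5 on 1, so the basal keratins give no check of the label. The keratinocyte markers summed to 19747.5 to 21248.6 in EGFP-high arrays, against 22778.4 to 27859.0 in EGFP-negative arrays, with Sfn and Pkp1 called lower. The 11 bulge markers summed to 16082.1 to 18655.0 in EGFP-high arrays, against 1976.4 to 2395.4 in EGFP-negative arrays. Postn and S100a4, with EGFP-high means of 7518.7 and 5009.8, weigh most in the EGFP-high sums. Lgr5 and Fgf18 were each above the control percentile on 3 arrays, all EGFP-high. The list was chosen with earlier results of these data known, so these sums are no check of the sort. The array held 7 melanocyte, 8 fibroblast, 7 leukocyte and 8 muscle or pericyte markers. Of these, Mitf (melanocyte) and Myl9 (muscle or pericyte) were called higher and Thy1 (fibroblast) lower. In the melanocyte, muscle or pericyte and fibroblast lists other markers went the other way without being called, so the called genes give no direction for a cell type. Leukocyte markers summed to 626.8 to 850.0 in EGFP-high arrays, against 440.8 to 583.7 in EGFP-negative arrays, with 0 called. The melanocyte sums were 613.8 to 711.0 against 452.8 to 498.0. Fibroblast sums and muscle or pericyte sums overlapped between the groups. The part of such cells was not tested. Myl9 was above the control percentile on 3 arrays, all EGFP-high. The array of EGFP-high replicate 1 lay nearest to the other group on the first principal component.

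Each probe set was compared on the scale log2(intensity + 19.3), on which a difference of 1 is a doubling for bright probe sets, and the differences are EGFP-high minus EGFP-negative. The test was limma's, without the replicate number as a term and with Benjamini-Hochberg adjustment over 7453 tested probe sets. A probe set was called at an adjusted p under 0.05. All 12 member probe sets passed the filter on low values and were above the control level on all 6 arrays. By this test 1 of the 12 was lower in EGFP-high cells and 0 were higher, where 5.19% of all tested probe sets were called, 3.02% higher and 2.17% lower. The 1 called was Itga6, and at an unadjusted p under 0.05 the counts of members were the same, 0 higher and 1 lower, where 17.1% of all tested probe sets passed, 8.47% higher and 8.68% lower. The median difference of the 12 was 0.16, against -0.0017 over all tested probe sets. Of the 12 differences 9 were positive, against 49.8% of all tested probe sets, and the 12 stand for only 8 genes. With the replicate number as a block in the fit, which raised the background to 10.4% (5.13% higher, 5.31% lower), the count of members was again 0 higher and 1 lower. Without EGFP-high replicate 1 it was 1 higher and 1 lower.

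**Figure D1:**
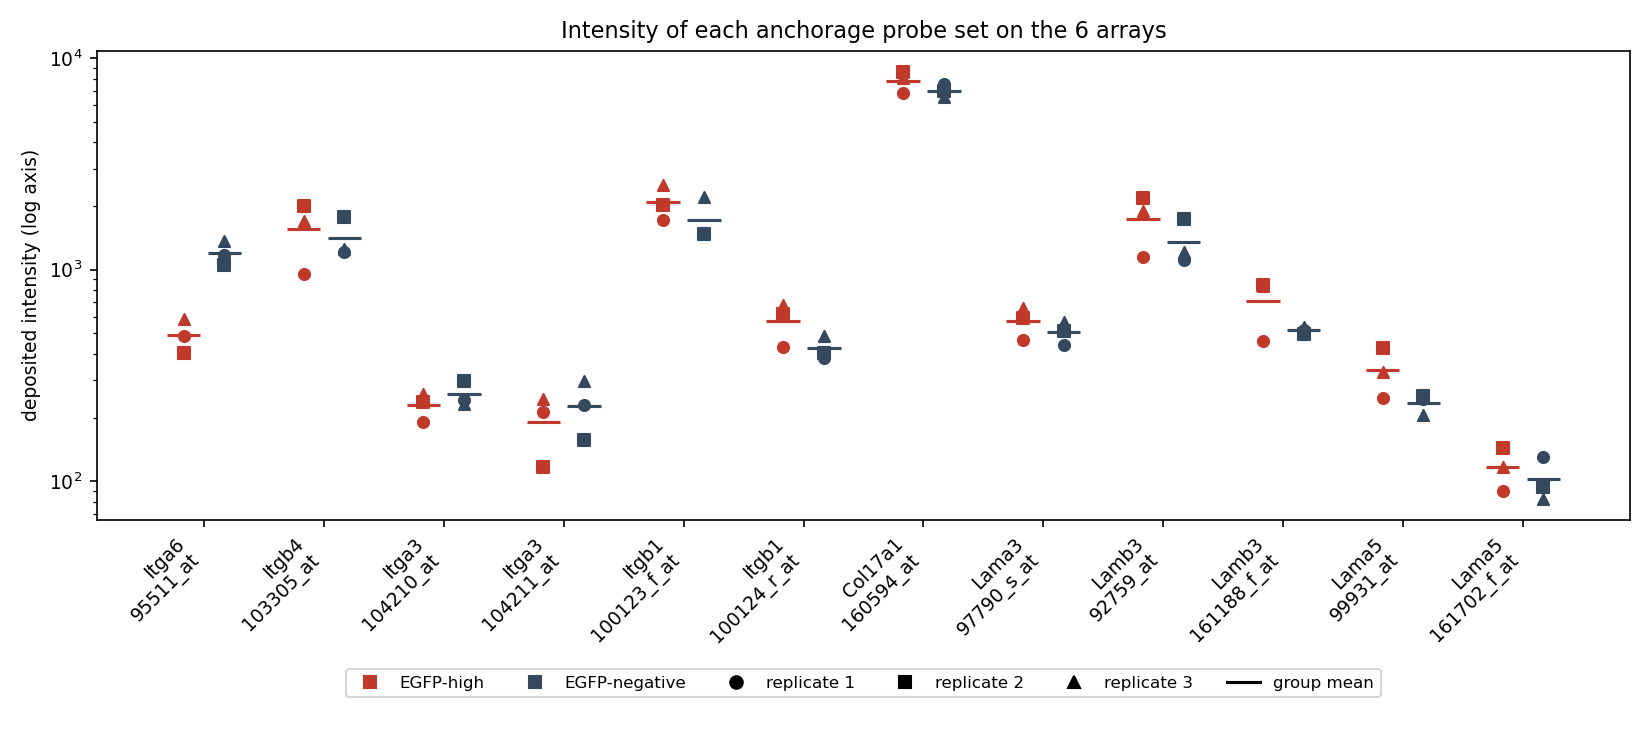
Deposited intensity on a log axis for each of the 12 member probe sets, with EGFP-high arrays left and EGFP-negative arrays right in each pair. Symbols mark the replicate number and lines the group means. Itga6 is the 1 probe set whose groups do not overlap.

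Itga6 encodes the α6 chain, which pairs with β4 in hemidesmosomes and with β1 elsewhere. Probe set 95511_at read 485.1, 405.6 and 585.3 on the arrays of EGFP-high replicates 1, 2 and 3, against 1178.1, 1050 and 1371.4 on those of EGFP-negative replicates 1, 2 and 3. Every EGFP-high array was below every EGFP-negative array, which held for 11.1% of all tested probe sets (22.7% were separated in either direction). The means were 492.0 ± 90.0 for EGFP-high cells, against 1199.8 ± 162 for EGFP-negative cells (SD, n = 3 each), so EGFP-negative cells read 2.44 times as high.

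The log2 difference of Itga6 was -1.26 (SE 0.18, 95% interval -1.67 to -0.85, adjusted p = 0.00449, limma). It ranked 100 among the 7453 probe sets from the most negative upward. Between arrays of the same replicate number the differences were -1.25, -1.33 and -1.20 for numbers 1, 2 and 3, the same direction in all 3 with little spread between them. Leaving out any 1 array kept the call, with differences between -1.39 and -1.13 and adjusted p up to 0.0226. Fewer cells with the transcript and less transcript per cell cannot be told apart in sorted pools such as these.

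Endothelial and Schwann cells also make α6 integrins, so their markers were read beside Itga6. The 8 endothelial markers summed to 157.9 to 267.7 in EGFP-high arrays, against 113.8 to 203.9 in EGFP-negative arrays, with Cdh5, Tek, Tie1 and Vwf never above the control level. The 5 Schwann cell markers on the array summed to 1043.6 to 1229.7 in EGFP-high arrays, against 1274.4 to 1585.8 in EGFP-negative arrays, with S100b never above it and the other 4 (Mbp, Pmp22, Sox10 and Erbb3) above it on all 6 arrays. The Schwann sums lay in the same direction as Itga6 without overlap, but the 4 tested markers went both ways. Erbb3, the brightest of them, had a log2 difference of -0.56 and Mbp one of -0.65, both lower in the EGFP-high array of all 3 replicate numbers. Pmp22 (0.67) was above in all 3. Sox10 (0.31), which is also among the melanocyte markers, was above in numbers 1 and 3 and near equal in number 2 (215.5 against 215.3). Erbb3 read 656.3, 524.8 and 403.3 in EGFP-high replicates 1, 2 and 3, against 704.1, 767.9 and 857.4 in EGFP-negative replicates 1, 2 and 3, the widest gap of the 5 on the linear scale that is summed. By limma 0 markers of either list passed the adjusted threshold. At an unadjusted p under 0.05, Mbp and Erbb3 passed among the Schwann markers and 0 of 1 tested endothelial markers did. The part of these cells in the result was not tested.

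Itgb4 encodes the β4 chain, whose only known partner is α6. Probe set 103305_at read 950.6, 2007.9 and 1697.7 in EGFP-high replicates 1, 2 and 3, against 1215.7, 1783.3 and 1256.2 in EGFP-negative replicates 1, 2 and 3. The groups overlapped, and EGFP-high held both the lowest and the highest array. The log2 difference was 0.08 (SE 0.28, 95% interval -0.55 to 0.71, adjusted p = 0.921). By replicate number it was -0.35, 0.17 and 0.43, so its sign was not the same in all pairs, and it turned negative on leaving out EGFP-high replicate 2 (-0.13), EGFP-high replicate 3 (-0.01) or EGFP-negative replicate 1 (-0.02). The difference measured for Itga6 lies outside the interval of Itgb4.

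Itgb1 encodes the β1 chain, which pairs with α3, α6 and many other α chains. The brighter set, 100123_f_at, read 1709.5, 2015.5 and 2524.5 in EGFP-high replicates 1, 2 and 3, against 1491.6, 1481.2 and 2196.2 in EGFP-negative replicates 1, 2 and 3. Its log2 difference was 0.28 (SE 0.21, 95% interval -0.20 to 0.76, adjusted p = 0.586). The other set, 100124_r_at, read 428.8, 615 and 679.7 against 384.3, 404.7 and 485.8 in the same order, a log2 difference of 0.40 (SE 0.20, adjusted p = 0.364).

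Both Itgb1 sets overlapped between groups and neither passed the threshold. In each of the 3 replicate numbers, though, the EGFP-high array was above the EGFP-negative one on both sets, by log2 values of 0.15 to 0.58. With the replicate number as a block the 95% intervals were 0.02 to 0.53 and 0.08 to 0.72, and the adjusted p-values of 0.174 and 0.122 remained above the threshold.

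Itga3 encodes the α3 chain of the laminin receptor α3β1. Probe set 104210_at read 190.5, 235.9 and 258.9 in EGFP-high replicates 1, 2 and 3, against 243.3, 298.3 and 232 in EGFP-negative replicates 1, 2 and 3. Probe set 104211_at read 212.5, 116.8 and 243.6, against 228.1, 156.7 and 298.5 in the same order. The groups overlapped on both sets.

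The log2 differences of Itga3 were -0.16 (95% interval -0.57 to 0.24, adjusted p = 0.712) on 104210_at and -0.25 (95% interval -0.91 to 0.42, adjusted p = 0.740) on 104211_at. Beside Itga6 these were the other two negative differences among the members. The lower bound for 104211_at reaches into the interval of Itga6, and without EGFP-high replicate 2 its difference was 0.04.

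Col17a1 encodes collagen XVII, the transmembrane collagen of the hemidesmosome. Probe set 160594_at read 6848.8, 8601.8 and 8023.5 in EGFP-high replicates 1, 2 and 3, against 7528.2, 7025.7 and 6527.3 in EGFP-negative replicates 1, 2 and 3. The groups overlapped through EGFP-high replicate 1. The log2 difference was 0.15 (SE 0.15, 95% interval -0.20 to 0.50, adjusted p = 0.692), the narrowest interval of the 12.

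Lama3 and Lamb3 encode the α3 and β3 chains of laminin-332, the ligand that both integrins bind. Lama3, on 97790_s_at, read 466.1, 588.1 and 661.6 in EGFP-high replicates 1, 2 and 3, against 441.3, 512.7 and 565 in EGFP-negative replicates 1, 2 and 3. Its log2 difference was 0.16 (95% interval -0.24 to 0.57, adjusted p = 0.720), positive in all 3 replicate numbers but with overlapping groups.

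Lamb3 on 92759_at read 1150.6, 2178.7 and 1902.6 in EGFP-high replicates 1, 2 and 3, against 1111.7, 1737.8 and 1215.3 in EGFP-negative replicates 1, 2 and 3. On 161188_f_at it read 462.6, 845.7 and 834.9, against 517.6, 495.5 and 538.5 in the same order. On this second set EGFP-high replicates 2 and 3 stood well above every EGFP-negative array and EGFP-high replicate 1 stood below all of them. The log2 differences were 0.34 (95% interval -0.26 to 0.93, adjusted p = 0.595) and 0.40 (95% interval -0.12 to 0.93, adjusted p = 0.443). Without EGFP-high replicate 1 they were 0.61 (adjusted p = 0.183) and 0.68 (adjusted p = 0.0412), so that 161188_f_at then passed. It did not pass when both arrays of number 1 were left out (adjusted p = 0.0760), a choice made after seeing the data.

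Lama5 encodes the α5 chain of laminin-511. Probe set 99931_at read 247.1, 424.7 and 329.4 in EGFP-high replicates 1, 2 and 3, against 244.4, 252 and 206 in EGFP-negative replicates 1, 2 and 3. The groups overlapped because EGFP-high replicate 1 lay below EGFP-negative replicate 2. Its log2 difference of 0.45 (SE 0.21, 95% interval -0.02 to 0.92, adjusted p = 0.316) was the most positive of the 12. The dimmer set 161702_f_at read 89.5, 143.7 and 116.4, against 130.8, 93.5 and 82.8 in the same order, a difference of 0.16 (95% interval -0.34 to 0.66, adjusted p = 0.782).

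**Figure D2:**
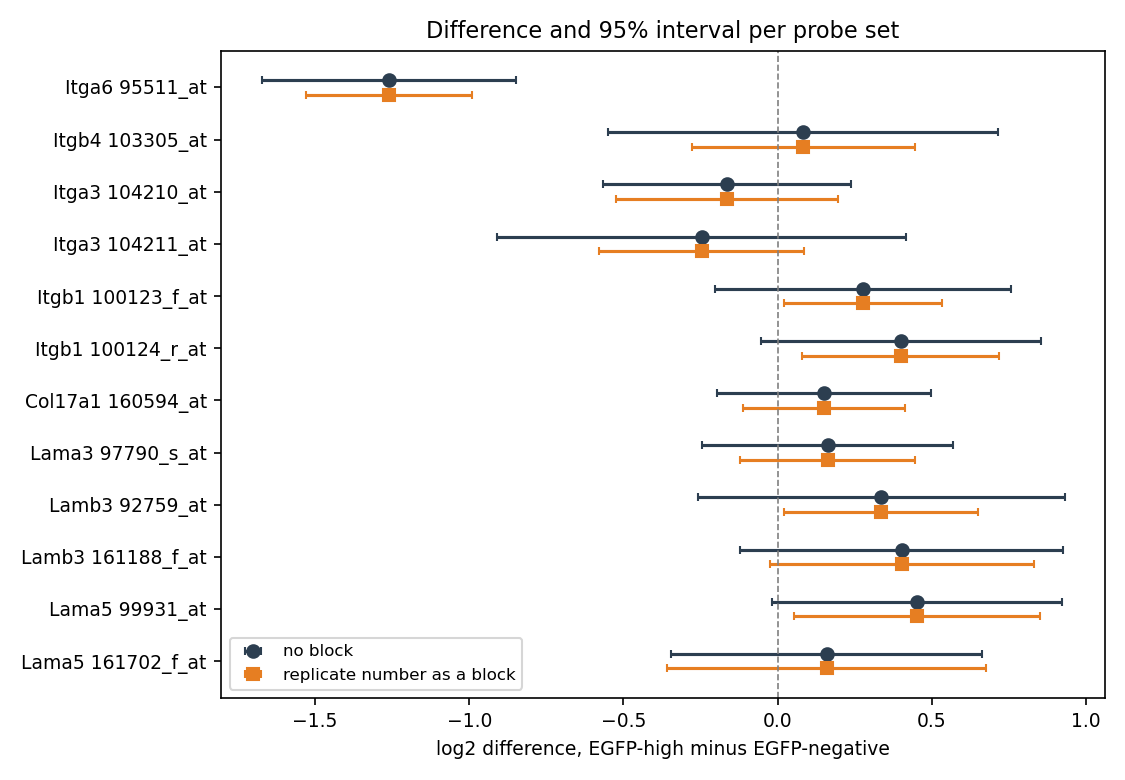
Log2 difference with its 95% interval for each member probe set, from the fit with no block (circles) and with the replicate number as a block (squares). The interval of Itga6 lies between -1.67 and -0.85 with no block, and those of the other 11 probe sets hold 0. With the block 4 of the 11 intervals lie above 0: both Itgb1 sets, Lamb3 92759_at and Lama5 99931_at. The share of all tested probe sets with such an interval was not computed.

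In the fit with no block, the 95% intervals of the other 11 probe sets all held 0, their differences lay between -0.25 and 0.45 and their adjusted p-values between 0.316 and 0.921. Of these 11 intervals 10 lay wholly above that of Itga6, and with the block 11 of 11 did. With the block 7 of the 11 held 0 and 4 lay above 0, those of both Itgb1 sets, of Lamb3 on 92759_at (0.02 to 0.65) and of Lama5 on 99931_at (0.05 to 0.85). The adjusted p-values of the 11 with the block were between 0.122 and 0.799, so 0 passed. These intervals are not adjusted for the number of probe sets tested. The share of all tested probe sets whose interval with the block lies clear of 0 was not computed. The count of 4 is therefore not read as a result about the members. Values that do not pass the threshold do not show that these genes were equal in both gates.

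The size and sign of the differences varied with the replicate number for several members. In number 1 the difference was positive for 5 of the 12 probe sets, in number 2 for 9 and in number 3 for 10, while among all tested probe sets 52.3%, 47.3% and 49.1% were positive. The members' median differences were -0.12, 0.31 and 0.35 in numbers 1, 2 and 3. In number 1 Itgb4, Col17a1, Lamb3 on 161188_f_at and Lama5 on 161702_f_at were lower in the EGFP-high array, and in numbers 2 and 3 these 4 were higher. Itga6 and Itga3 on 104211_at were the 2 probe sets lower in all 3 numbers. Both Itgb1 sets, Lama3, Lamb3 on 92759_at and Lama5 on 99931_at were higher in all 3. The share of all tested probe sets with the same sign in all 3 numbers was not computed.

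**Figure D3:**
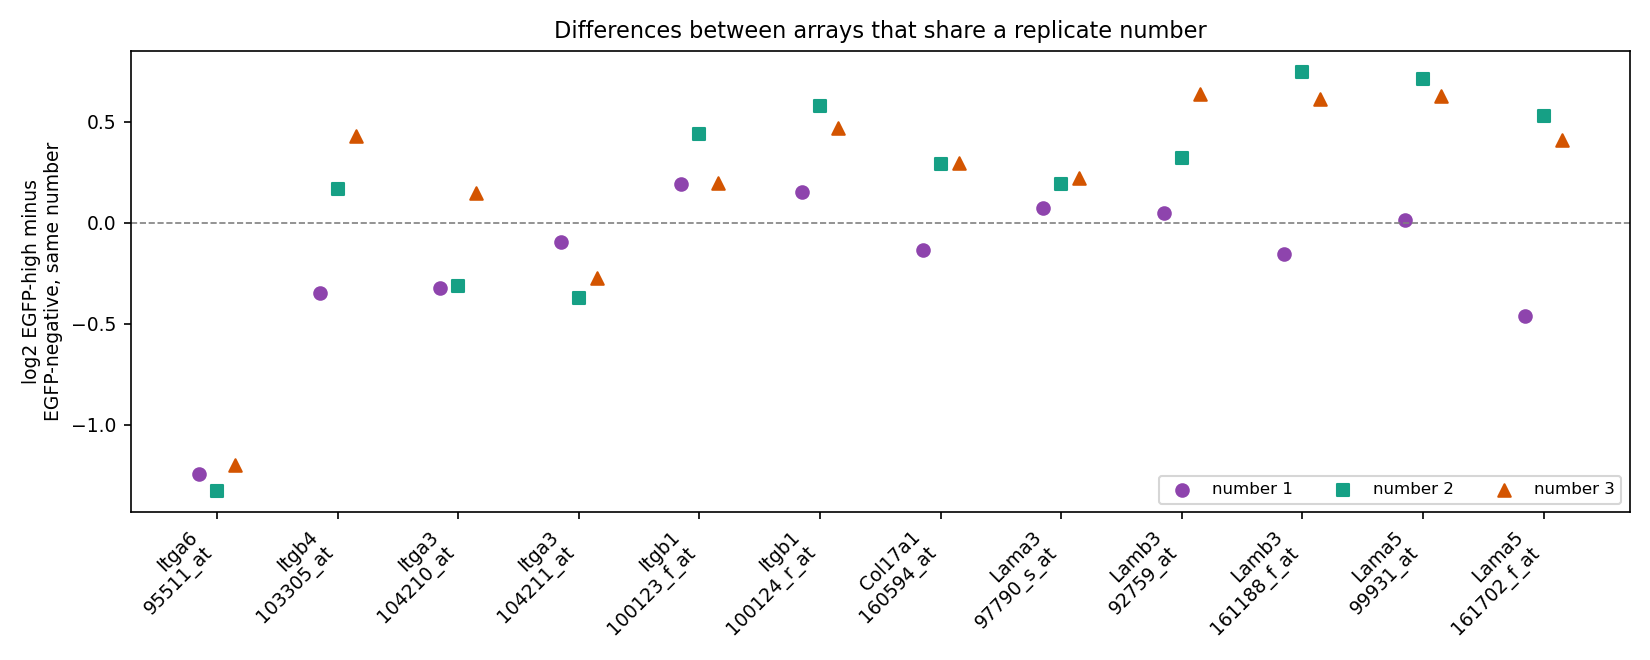
Log2 difference between the EGFP-high and the EGFP-negative array of each replicate number, for the 12 member probe sets. The 3 points of Itga6 lie together between -1.33 and -1.20, whereas for Itgb4, Lamb3 161188_f_at and both Lama5 sets number 1 lies apart from numbers 2 and 3.

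Whether 2 members changed unequally was read within each array, as the log2 value of 1 minus that of the other, each by its brighter probe set. The level of such a value has no meaning across different probe sets, but its change between the gates does. For 6 pairs the change was tested with a two-sided exact permutation test over the 6 arrays, which with 3 against 3 cannot go below p = 0.1, and adjusted over the 6 pairs. No pair could therefore pass the threshold.

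Itga6 minus Itgb4, the chains of the hemidesmosome integrin, was -0.94, -2.25 and -1.51 in EGFP-high replicates 1, 2 and 3, against -0.04, -0.75 and 0.12 in EGFP-negative replicates 1, 2 and 3. The groups did not overlap, and the change was -1.34 (exact permutation p = 0.1, adjusted 0.2). Itga6 minus Itgb1, the chains of α6β1, was -1.78, -2.26 and -2.07, against -0.34, -0.49 and -0.67 in the same order. This was the most even of the separated pairs, with a change of -1.54 and SDs of 0.24 in EGFP-high and 0.17 in EGFP-negative arrays (n = 3 each, exact permutation p = 0.1, adjusted 0.2).

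Itga6 minus Itga3, the α chains of the laminin receptors, averaged 1.04 ± 0.27 in EGFP-high and 2.14 ± 0.36 in EGFP-negative arrays (SD, n = 3 each). Its groups did not overlap either, with a change of -1.10 (exact permutation p = 0.1, adjusted 0.2). All 3 pairs with Itga6 changed in the same direction in each of the 3 replicate numbers. The pairs share the values of Itga6 and are not separate results. Itga6 separates the gates on its own, as 22.7% of all tested probe sets do in either direction. How often pairs of other probe sets separate was not computed.

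The pairs without Itga6 overlapped between the gates. Itga3 minus Itgb1 changed by -0.44 (exact permutation p = 0.3, adjusted 0.45), with the same direction in 3 of 3 replicate numbers. After quantile normalization this pair changed by -0.69, with the same adjusted p as the 3 pairs with Itga6 (exact permutation, adjusted 0.15). Its contrast with those pairs therefore depends on the processing. Lama3 minus Lamb3, chains of the same laminin, changed by -0.17 (p = 0.6 by the exact permutation test, adjusted 0.72). Itgb4 minus Col17a1, the hemidesmosome's integrin β chain and its collagen, changed by -0.07 (p = 0.9 by the exact permutation test), a value that turned positive on leaving out EGFP-high replicate 1 (0.15) or EGFP-negative replicate 2 (0.11).

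**Figure D4:**
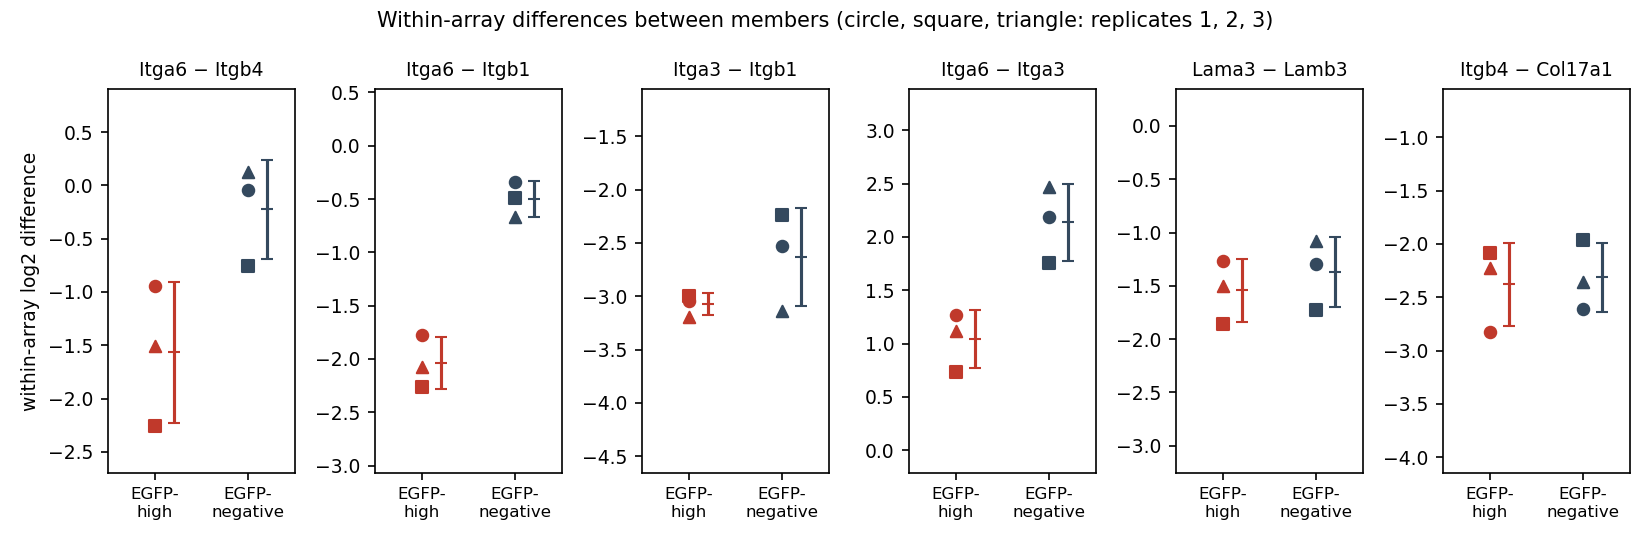
Within-array log2 difference between 2 members for 6 pairs, with EGFP-high left and EGFP-negative right; points are arrays and bars the mean ± SD (n = 3 each), and all panels span the same range. The 3 pairs with Itga6 as the first gene separate the gates, and the other 3 pairs overlap. Itga6 separates the gates on its own, as 22.7% of all tested probe sets do in either direction.

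The members were then set beside 4 lists of other adhesion genes, each gene by its brightest probe set. Of 33 tested genes 4 were higher and 0 lower in EGFP-high cells, against 3.02% and 2.17% of all tested probe sets. The lists were chosen with earlier results of these data known, so these counts are no test of an excess. Npnt, 1 of the 4, is also among the bulge markers. At an unadjusted p under 0.05 the 4 lists held 7, 2, 0 and 0 higher genes (basement membrane, cytoplasmic linkers, hemidesmosome partners, other integrins) and 1 lower one, in the basement membrane list. They hold 14, 10, 3 and 6 tested genes in the same order, and 8.47% of all tested probe sets were higher and 8.68% lower at that unadjusted threshold. Among hemidesmosome partners 0 of 3 tested genes passed, with a median difference of 0.09. The 3, of which Plec and Cd151 were named after their values were seen, were Plec, the plakin plectin that binds the β4 tail (-0.14, adjusted p = 0.785), Cd151, a tetraspanin of laminin-binding integrins (0.09, adjusted p = 0.818), and Col7a1, the anchoring fibril collagen (0.36, adjusted p = 0.324). Col7a1 was higher in the EGFP-high array of all 3 replicate numbers, at 876.7, 1090.9 and 1168.1 in EGFP-high replicates 1, 2 and 3, against 715.2, 825.7 and 880.4 in EGFP-negative replicates 1, 2 and 3.

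Among other laminins and basement membrane genes 2 of 14 were higher and 0 lower, and their median difference was 0.47. Npnt, an integrin α8 ligand of the bulge basement membrane, read 348.8, 525.8 and 660.9 in EGFP-high replicates 1, 2 and 3, against 69.9, 80.3 and 64.9 in EGFP-negative replicates 1, 2 and 3 (log2 2.50, adjusted p = 0.000451). Col18a1, a collagen and proteoglycan of basement membranes, on its brightest set 99638_at read 805.2, 879.6 and 809.1, against 479.2, 333.2 and 477.6 in the same order (log2 0.94, adjusted p = 0.0162). The 3 other tested Col18a1 sets differed by more, with log2 differences of 3.25 on 101882_s_at (adjusted p = 0.000866), 2.17 on 101881_g_at (adjusted p = 0.00239) and 1.60 on 162483_f_at (adjusted p = 0.00573). On 101882_s_at the EGFP-negative arrays (21.4, 29.2 and 22.9) were below the control level, so this set passed the filter only through its EGFP-high values. A further set, 101880_at, was too dim to be tested and went the other way (log2 -0.27). Agrn, the heparan sulfate proteoglycan agrin, was nearest to the threshold (0.66, adjusted p = 0.0718).

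With the replicate number as a block this list had 5 higher and 0 lower, the additional genes being Agrn (adjusted p = 0.0272) and the collagen IV chains Col4a1 (1.25, adjusted p = 0.00951) and Col4a2 (1.03, adjusted p = 0.00304). Without EGFP-high replicate 1 the same 3 genes passed as well, and Lama1, a laminin α chain, was lower (-1.79, adjusted p = 0.00373). In the main fit on all arrays Lama1 did not pass (-1.17, adjusted p = 0.232). Lama1 read 97.7, 14.8 and 10.4 in EGFP-high replicates 1, 2 and 3, against 92.7, 88.2 and 92.4 in EGFP-negative replicates 1, 2 and 3, so that EGFP-high replicate 1 alone stood at the level of the other gate. EGFP-high replicates 2 and 3 were below the control level, so the call without replicate 1 compares values at the floor with the other gate. Lama1 was named after its values were seen.

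Among other integrin subunits 0 of 6 tested genes passed, with a median of 0.30. The nearest to the threshold was Itgb7 (0.36, adjusted p = 0.349). Among the cytoplasmic linkers, which join integrins to actin, 2 of 10 were higher and 0 lower, and their median difference was 0.09. Actn1, an α-actinin, read 1302.2, 1510.3 and 2195.2 in EGFP-high replicates 1, 2 and 3, against 243.1, 313.6 and 499.8 in EGFP-negative replicates 1, 2 and 3 (log2 2.21, adjusted p = 0.00226). Rsu1, a component of the integrin-linked kinase complex, had a difference of 0.64 (adjusted p = 0.0486), and Lims1, its partner in that complex, was nearest to the threshold among those that did not pass (-0.31, adjusted p = 0.493).

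Single arrays moved the count of higher genes over the 4 lists. It came to 7 when EGFP-high replicate 1 was left out, and to 2 when the array left out was EGFP-high replicate 2, EGFP-high replicate 3 or EGFP-negative replicate 2. Npnt and Actn1 passed with each array left out. Rsu1 passed only when the array left out was EGFP-high replicate 1 (adjusted p up to 0.186 for the other arrays). Col18a1 on 99638_at missed the threshold when the array left out was EGFP-high replicate 2, EGFP-high replicate 3 or EGFP-negative replicate 2 (adjusted p up to 0.0724), whereas its 3 other tested sets passed with each array left out (adjusted p up to 0.0246).

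**Figure D5:**
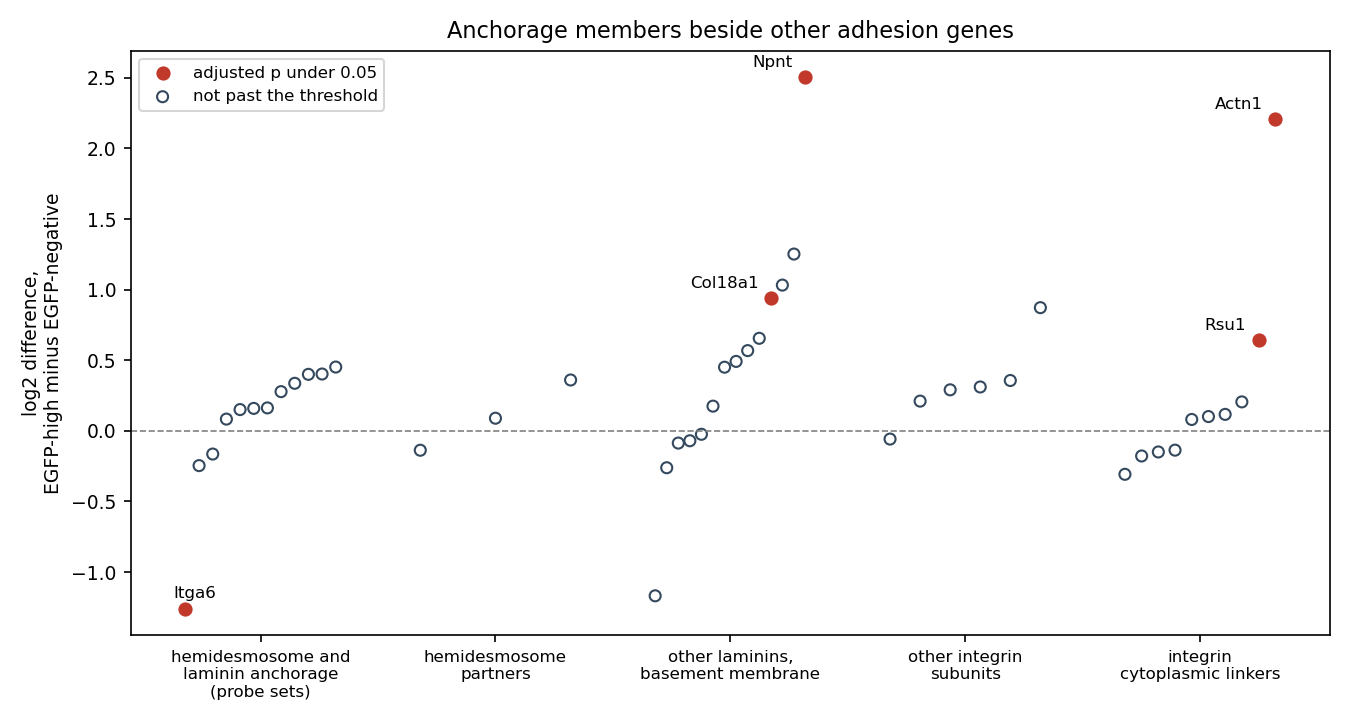
Log2 difference, EGFP-high minus EGFP-negative, for the 12 member probe sets and for the tested genes of 4 other adhesion lists, sorted within each list. Filled points passed an adjusted p of 0.05: Itga6 at -1.26 is the 1 filled point below 0, and Npnt, Col18a1, Actn1 and Rsu1 lie above 0.

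The genes most like 3 of the members were taken as the tested probe sets with the smallest root mean square distance over the 6 arrays, after each was centred on its own mean log2 value. Nearest to Itga6 were Ccng2, a cyclin G (distance 0.09, log2 difference -1.29), F2r, a thrombin receptor (0.10, -1.24), and Gja1, the gap junction protein connexin 43 (0.12, -1.34). Being chosen for likeness to Itga6 on these same arrays, they had to be lower in EGFP-high cells, and no test of them is given. Ccng2 read 137.5, 99.7 and 138.4 in EGFP-high replicates 1, 2 and 3, against 325.3, 310.9 and 356.4 in EGFP-negative replicates 1, 2 and 3, and like Itga6 it was lowest in EGFP-high replicate 2 and highest in EGFP-negative replicate 3.

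Nearest to Itgb4 were Mlec, Cuedc1 and Tert, with distances of 0.07, 0.09 and 0.11 and log2 differences of 0.12, 0.02 and 0.04. Nearest to Itgb1 were Ssb, Oser1 and Rab28, with distances of 0.05 to 0.08 and differences of 0.23, 0.16 and 0.22. The likeness is over 6 arrays of 2 groups and describes these arrays only.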

How the data were processed

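The deposited values are linear intensities, 1 for each probe set on each of 6 arrays. Not given in the sources used here are the authors' software, background method and filters. The 2% trimmed means lay between 150.06 and 150.08 on the 6 arrays and the medians between 69.55 and 76.05, so no rescaling was done; how the authors scaled the arrays is not given in the sources used here. The 66 control rows were left out. Of 12422 probe sets 10833 had 1 symbol, 396 several and 1193 none listed; symbols were updated through RefSeq gene identifiers (GRCm38.p6, names only), which matched 10817. The pseudocount of 19.3 is the 25th percentile of all values above 0. The 7453 probe sets whose mean log2 value exceeded the 40th percentile entered the test, made with limma 3.58.1 in R 4.3.3 (lmFit, eBayes with trend, two-sided, Benjamini-Hochberg), without replicate number as a term. The procedure was tested on simulated data. The alternatives were 2 other pseudocounts, no filter, quantile normalization, no trend, the replicate block and each array left out; leaving out both arrays of number 1 was added after seeing the data.

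After subtracting group means, arrays of the same number correlated across probe sets at 0.336, 0.368 and 0.305, all above the limit of 0.1, so the numbers, which come from the titles, were taken to pair the samples. This pairing enters the fit with the block and the differences by replicate number. The main fit, its intervals and the exact permutation test leave it out. No read depth applies, and the number of arrays limits the precision. The control level is the 95th percentile, on each array, of 19 control probe sets for bacterial and yeast transcripts. Named genes are all members, the called genes of the 4 lists (up to 6 each), the gene of each list nearest to the threshold and the 3 nearest patterns of Itga6, Itgb4 and Itgb1. Outside this rule Plec, Cd151, Col4a1, Col4a2, Lama1 and the marker genes were named after their values were seen. The members and lists were chosen with earlier results of these data known.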

Additional observations from a re-analysis of the deposited data

How the results depend on the processing

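The call of Itga6 as lower held under all 13 alternatives, with log2 differences of -1.39 to -1.13 and adjusted p-values of 0.000541 to 0.0226. The fit with the replicate block called 778 probe sets (382 higher, 396 lower) in place of 387 (225 higher, 162 lower), and 7 other adhesion genes in place of 4, all 7 higher. The block changed no call of a member. Leaving out single arrays gave 191 to 500 probe sets (108 to 266 higher, 83 to 234 lower), 1 to 2 member probe sets (0 to 1 higher) and 2 to 8 other adhesion genes (2 to 7 higher, 0 to 1 lower). Over the same alternatives the log2 difference of Itgb4 ranged from -0.13 to 0.40, that of Itga3 104211_at from -0.47 to 0.040 (positive without EGFP-high replicate 2), and the within-array change of Itgb4 minus Col17a1 from -0.22 to 0.15. Without both arrays of number 1, 7 other adhesion genes passed (1 lower), and Itgb4 minus Col17a1 was 0.0050. The cause of these shifts was not tested beyond the smaller number of arrays. Quantile normalization turned no member's sign, and Agrn passed under it (0.79, adjusted p = 0.0220). It raised the differences of the brightest member sets, though none of these passed. Col17a1 went from 0.15 to 0.38 and Itgb1 100123_f_at from 0.28 to 0.52 (adjusted p = 0.278 and 0.214, limma). Lamb3 92759_at went from 0.34 to 0.48 and Itgb4 from 0.08 to 0.22, while the dimmer member sets moved less. Rsu1 did not pass with the smaller pseudocount, with no filter (adjusted p = 0.0554) or with no trend (0.0688). With 3 arrays a group, the intervals of members other than Itga6 leave changes of up to 0.93 on the log2 scale possible.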
